A study of Rattus norvegicus with 12 samples.

Results

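Transcripts of rat hippocampal cultures were compared between 26 h and 9 h of an experiment on synaptic blockade, with the effect of time averaged over untreated and blocked cultures. All 26 h arrays were set against all 9 h arrays, so that all 12 of the 12 arrays entered, 6 for each time. Neurons came from Wistar rat embryos at embryonic day 18 and had been kept for 14 to 15 days in vitro. At each time 3 cultures were left untreated and 3 received 50 µM GYKI-52466, which blocks AMPA receptors, with 10 µM MK-801, which blocks NMDA receptors. Per the labels, 200 ng of RNA from independent cultures was labelled with Cy3. The labels do not say whether untreated cultures received vehicle or a change of medium, or whether cultures with the same replicate number came from the same preparation.

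In many cell types, growth factor signals and strain on the cytoskeleton are known to switch on early factors of the AP-1 family and serum response genes, whose targets include secreted proteases, protease inhibitors and matrix genes. Transcripts can also follow the time of day through the circadian clock. CLOCK and BMAL1 switch on Per, Cry and Nr1d genes and the output factor Dbp through E-box sequences. The PER and CRY proteins then repress CLOCK and BMAL1.

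Headers of the scanner output place the 12 arrays on 6 slides and 2 scan days. On the 3 slides of day 1 the 9 h culture was untreated and the 26 h culture blocked. On the 3 slides of day 2 it was the other way round, so that every slide compares the times within itself. All 9 h arrays lay at position 1 of their slide and all 26 h arrays at position 3, so that time and position on the slide cannot be told apart. Of 10 spike-in probes, 3 were above background on all 12 arrays and saturated on none, and their mean difference between 26 h and 9 h on a slide ran from -0.02 to 0.04 on the log2 scale, with single slides from -0.67 to 0.56. Between 77.6% and 86.8% of spots were well above background, and the number of arrays limits the precision. The neuronal genes Map2 and Rbfox3 were above background on all 12 arrays. In bulk RNA, fewer cells of a type and less RNA per cell cannot be told apart.

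More transcripts were lower at 26 h than were higher, and most of the large changes were falls. Of ribosome assembly factors 18 of 22 fell, and of proteases and inhibitors around plasminogen 8 of 13. The AP-1 gene Fosl1, the EGF receptor ligand gene Hbegf and the chemokine gene Ccl2 were lower at 26 h. The clock output gene Dbp, the clock repressor gene Per2 and the gap junction gene Gja5 were higher. Of 21244 targets tested, 5188 (24.4%) passed an adjusted p of 0.05 in limma with Benjamini-Hochberg adjustment, 2178 rising (10.3%) and 3010 falling (14.2%). Of these, 29 rose (0.137%) and 256 fell (1.21%) by at least 2-fold. The median change of all targets was -0.02 on the log2 scale and the median standard error 0.08. The excess of falls was smaller under other scalings. With arrays scaled to their median 2474 rose and 2729 fell, and with quantile normalization 2651 rose and 2931 fell.

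The number of targets that passed depended on the slides and on the block. It was 3061 without the slide of untreated 9 h replicate 3, 3361 without that of blocked 9 h replicate 2 and 2162 without that of blocked 9 h replicate 3, and 2684 with no block at all. Without all 4 arrays of replicate 1, 2 or 3 it was 2693, 1206 or 241. With no block, 119 of the 295 named genes past the threshold no longer passed. With the replicate number as the block in place of the slide, 7 of the 295 no longer passed. Among genes described as changed below, those lost with no block were Errfi1, Jdp2, Tnc, Crhbp, Pdyn, Hmox1, Gpx1, Cat, Hsf1, Hspa5, Rpl15, Cxcl10, Bst2, Acat2, Mvd, Mcm3, Ccnb1, Pclo, Gfap, Fgfr3, Gad2, Ugt8 and Mog, besides those given in place. With normexp background correction (offset 50), which draws dim values together, 56 of the 295 changes were smaller by over 1.5-fold and 36 no longer passed. Those lost and described below were Pole2, Jdp2, Mxd1, Cat, Rpl15, Mmp9, Ankrd1, Cxcl10, Ugt8 and Mog. Cacng7, Grip2, Grid1, Atf6 and Arl4d, given among the flagged results at the end, were lost as well. Apart from changes given in place, those smaller by over 1.5-fold that still passed were Pinlyp (0.39), Nr1d2 (0.34), Utp20 (-0.39), Unc5b (-0.55), Cartpt (-0.45), Stc2 (-0.65), Ltbp2 (-0.47), Hk2 (-0.68), Tgfbi (-0.64), Acan (-0.80), Areg (-0.67), Kcns1 (-0.41), Batf3 (-0.70), Maff (-1.13), Has2 (-0.58) and Itga5 (-1.21).

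**Figure D1:**
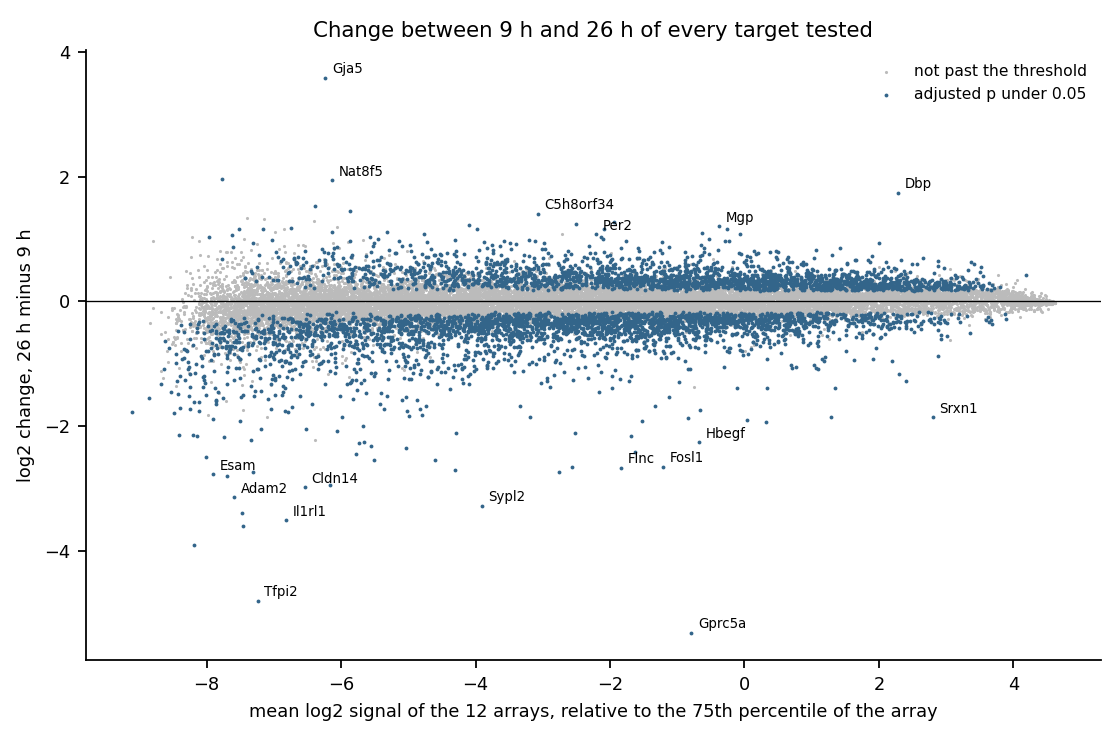
Each point is 1 of the 21244 targets tested, with its mean log2 signal over the 12 arrays (relative to the 75th percentile of the array) on the x axis and the log2 change from 9 h to 26 h on the y axis. Points past an adjusted p of 0.05 are blue, and beyond a change of 1 in size there are 256 such points below zero and 29 above it.

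Among the 256 targets that fell at least 2-fold, 253 were lower in untreated and in blocked cultures alike, and all 29 that rose were higher in both. The limit on the mean of both changes largely sets this, and 8493 of all 21244 targets had 1 direction in both. In either kind of culture alone the 2 times were scanned on different days, and the difference between the 2 effects is the same contrast as the scan day, so it was not tested. The 9 h and 26 h arrays did not overlap for 130 of the 256 falls and for 7 of the 29 rises. Without overlap, 570 of all targets (2.68%) were lower and 254 (1.2%) were higher at 26 h. For 32 of the falls every 26 h array was below background, so that their size is only bounded. These 32 passed the filter on dim probes only through a 9 h group, which favours a fall.

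**Figure D2:**
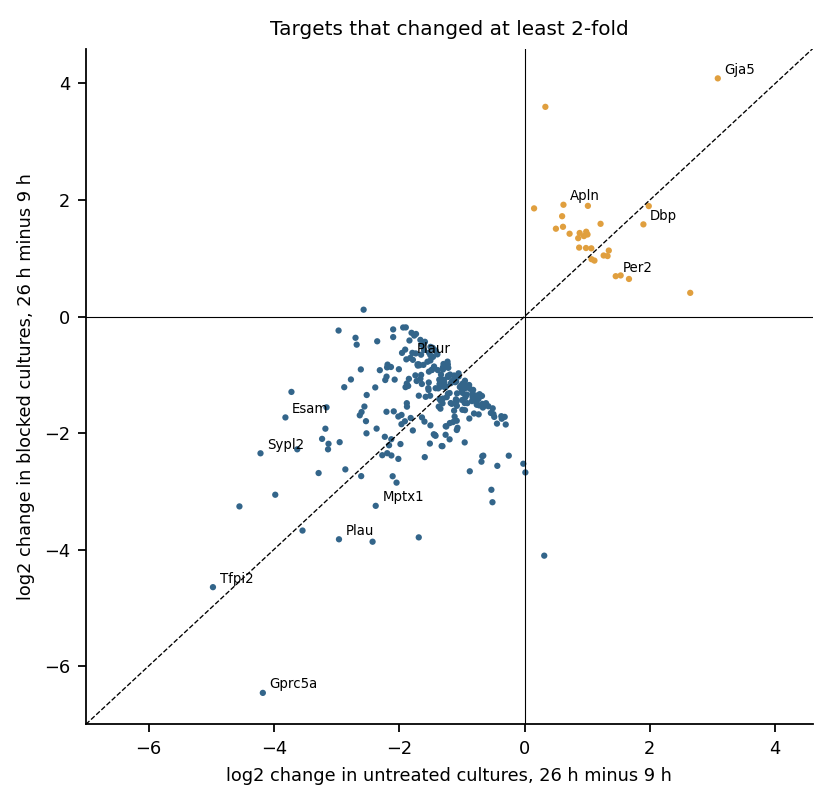
Each point is a target that changed at least 2-fold, with the change from 9 h to 26 h in untreated cultures on the x axis and in blocked cultures on the y axis (log2, means of 3 arrays per group). Falls are blue and rises orange, and 253 of the 256 falls lie below zero on both axes. The empty corner at the centre and its slanting edge come from the 2-fold limit on the mean of both values.

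Gprc5a, a retinoic acid induced orphan receptor of the plasma membrane, was the gene that fell most. Its signal on the log2 scale, relative to the 75th percentile of the array, ran from 1.24 to 2.83 (median 1.82) at 9 h and from -5.55 to -1.53 (median -3.34) at 26 h. No 26 h array reached a 9 h array. The change was -5.32 ± 0.28 (SE, 6 arrays for each time), a 39.9-fold fall (limma with Benjamini-Hochberg, adjusted p = 0.00104). It was -4.18 in untreated and -6.46 in blocked cultures.

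Several of the other large falls ended below the background of the array. Tfpi2, a secreted inhibitor of serine proteases, ran from -6.19 to -3.44 at 9 h (median -4.92) and from -9.84 to -9.38 at 26 h (median -9.72). All 6 of its 26 h arrays were below background, so that it fell at least 8.66-fold (limma adjusted p = 0.00234). Hsd17b2, which oxidises estradiol and testosterone, fell at least 4.92-fold, and the sperm surface gene Adam2 at least 3.74-fold. The pentraxin gene Mptx1 fell at least 3.17-fold and the junction adhesion gene Esam at least 2.69-fold. Such a bound sets the 9 h mean against the lowest signal that still counted as above background at 26 h. These genes passed the filter on dim probes only through a 9 h group, where they were high. Their adjusted p and their lack of overlap partly follow from that filter and are no separate support for a fall. This also holds for Il1rl1 and Plau, given below. With normexp the fitted changes were -1.53 for Tfpi2, -0.93 for Hsd17b2, -0.76 for Adam2, -0.63 for Mptx1 and -0.53 for Esam.

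The remaining large falls were above background at 26 h on at least 1 array. Il1rl1, the receptor for interleukin 33, fell on all 6 slides, but only 1 of its 6 arrays at 26 h was above background, so that its fitted change of -3.52 has no firm size. Cldn14, a tight junction claudin, changed by -2.99 ± 0.42, Agpat2, which makes phosphatidic acid, by -2.95 ± 0.17, and Flnc, the muscle type filamin, by -2.67 ± 0.27. Sypl2, a synaptophysin relative, changed by -3.28 on its brighter probe and by -0.37 on the other, so that its size is uncertain. Each of these 5 genes passed in limma with Benjamini-Hochberg adjustment, at adjusted p from 0.000876 to 0.00604. With normexp the changes were -1.28 for Il1rl1, -1.10 for Cldn14 and -1.30 for Agpat2.

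Gja5, which encodes connexin 40, rose most. It ran from -9.05 to -7.02 at 9 h (median -8.25) and from -6.63 to -2.98 at 26 h (median -4.37), and every 26 h array lay above every 9 h array. The change was 3.59 ± 0.41 (limma adjusted p = 0.00381), although only 4 of the 6 arrays at 9 h were above background. With normexp it was 1.65, and that of Nat8f5, given next, 0.82. Nat8f5, of a family of N-acetyltransferases, rose by 1.94 ± 0.14 and the uncharacterised C5h8orf34 by 1.40 ± 0.13. Apln, the peptide ligand apelin, rose by 1.27 ± 0.10, by 0.62 in untreated and 1.92 in blocked cultures. Mgp, an inhibitor of calcification in matrix, rose by 1.21, the orphan receptor gene Gpr149 by 1.24 and the lipid carrier gene Apod by 1.16. The cytidine deaminase gene Apobec1 rose by 1.22, the phospholipase inhibitor gene Pinlyp by 1.18, the junction gene Myzap by 1.16 and the DNA polymerase subunit gene Pole2 by 1.16. Without the slide block Apod and Apobec1 no longer passed (limma adjusted p = 0.335 and 0.206).

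**Figure D3:**
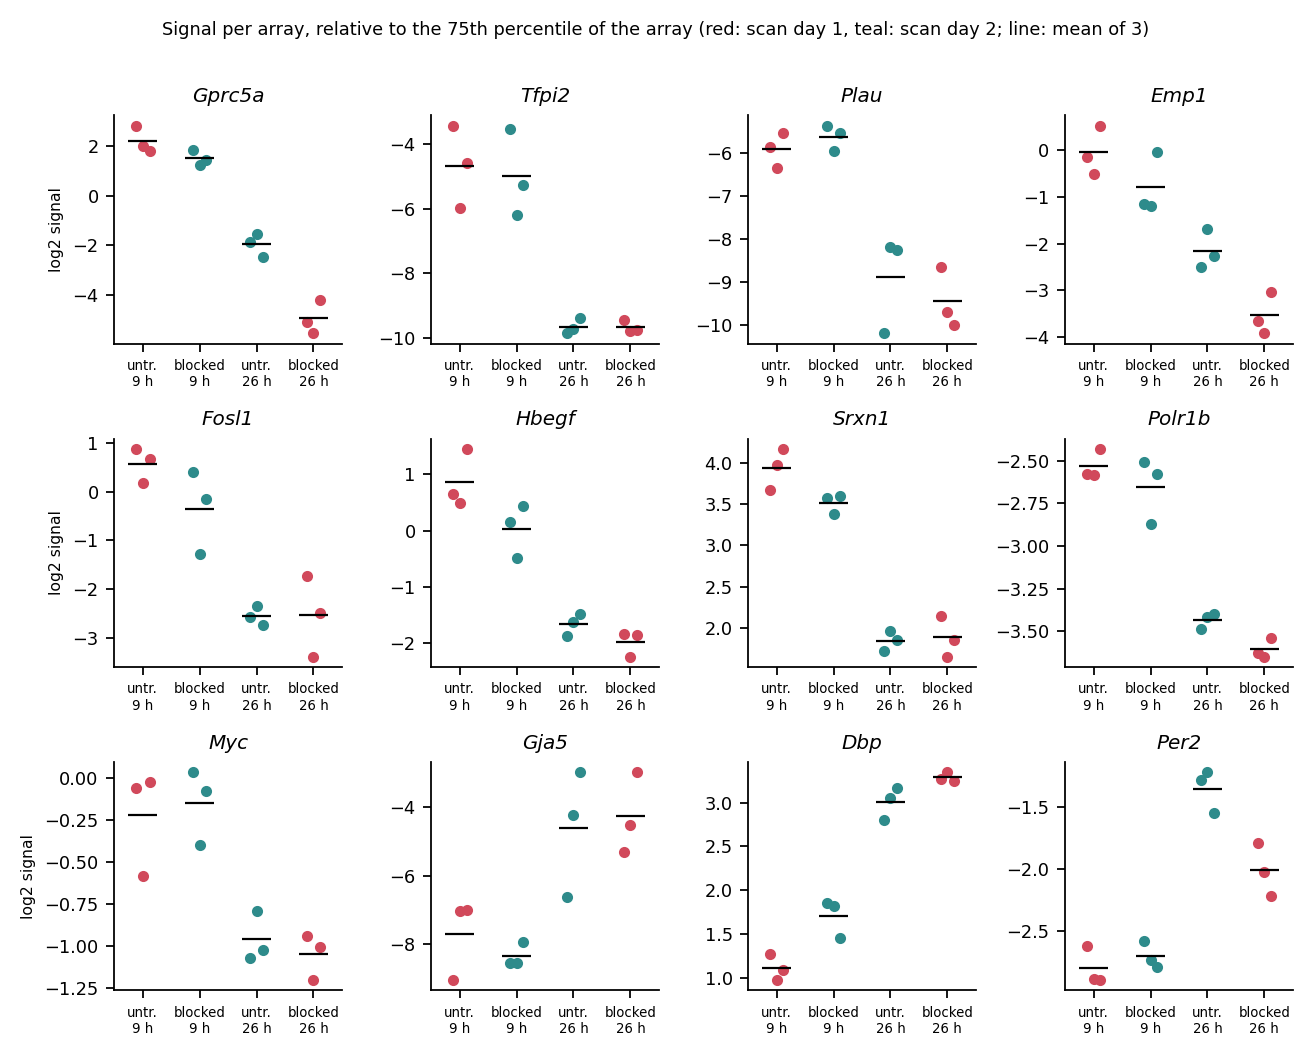
Each panel shows 1 gene, with the log2 signal of each array relative to the 75th percentile of that array on the y axis and the 4 groups on the x axis (3 arrays each, the line marks their mean, red is scan day 1 and teal scan day 2). In every panel all 6 arrays of 26 h lie on one side of all 6 arrays of 9 h.

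Most proteases and inhibitors around plasminogen fell. Of 13 members measured, 8 fell and 1 rose, against 14.2% and 10.3% over all targets, and their median change was -1.24 against -0.02. This family, like those of AP-1, EGF receptor ligands, integrins, cytoskeletal genes, ERK outputs, injury genes, the MYC network, tRNA synthetases and hormone enzymes below, was put together after values had been seen. Plau, the urokinase that activates plasminogen, ran from -6.35 to -5.37 at 9 h and from -10.2 to -8.20 at 26 h, without overlap. Its change was -3.39 ± 0.37 (limma adjusted p = 0.00352), with only 2 of 6 arrays above background at 26 h, and -0.88 with normexp. Plaur, the urokinase receptor, changed by -1.27 ± 0.17 (-0.65 with normexp) and Plat, the tissue type activator, by -0.92 ± 0.11. Procr, the endothelial protein C receptor, changed by -2.05 ± 0.22 (-0.55 with normexp) and F3, the tissue factor that starts clotting, by -0.94 ± 0.09. Serpinb2, a urokinase inhibitor, fell by 1.24 in the fit but rose on 3 slides, with -3.40 on day 1 and 0.93 on day 2. Thbd, which encodes thrombomodulin, did not pass at -1.74 ± 0.74, and the inhibitors Serpini1 (0.06) and Serpine2 (-0.01) did not pass.

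The promoters of this family were searched for the AP-1 motif TGANTCA on both strands, in RefSeq windows from 250 bases before to 50 after the start (GRCr8). Of 9 family members matched in the table, 4 held it (44.4%), against 5.56% of 10109 promoters of genes tested here. As the family was put together after values had been seen, its share is no test of the motif. Among the 12 largest falls, 1 of 8 promoters matched held it (12.5%). The 4 matches are shown with the motif in capitals, so that the letters can be read beside the falls above. They lie at chr4:32941333-32941373 (minus strand), chr1:89181263-89181303, chr3:164714493-164714533 and chr13:24055815-24055855 (plus strand).
Tfpi2: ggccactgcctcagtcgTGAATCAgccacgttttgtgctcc
Plaur: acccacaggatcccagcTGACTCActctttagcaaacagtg
Procr: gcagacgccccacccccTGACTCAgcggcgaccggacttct
Serpinb2: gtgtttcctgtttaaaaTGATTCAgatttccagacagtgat
A match is a description of the letters and not of a factor bound there.

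Of the AP-1 subunits, which bind that motif as dimers, 5 of 13 measured fell (38.5%) and 1 rose (7.69%). Over all targets 14.2% fell and 10.3% rose. Fosl1 ran from -1.29 to 0.87 (median 0.29) at 9 h and from -3.38 to -1.73 (median -2.53) at 26 h, without overlap. It changed by -2.66 ± 0.26, 6.30-fold (limma adjusted p = 0.00281). The small Maf gene Maff changed by -1.73 ± 0.11 and Batf3 by -1.51 ± 0.12, and Fosl2 (-0.39) fell less. Jdp2, a repressor of AP-1, rose by 0.63. Fos (-0.21 ± 0.16), Jun (0.18 ± 0.15) and Junb (0.17 ± 0.15) did not pass.

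Immediate early genes passed at shares near those of all targets. Of 23 measured, 4 fell (17.4%) and 1 rose (4.35%), against 14.2% and 10.3%: Maff, Atf3 (-1.05), Egr4 (-1.02) and Fosl2 fell and Nr4a3, an orphan nuclear receptor, rose by 0.79. Of 26 late activity genes 10 fell and none rose, with a median of -0.21. They include the tachykinin gene Tac1 (-1.05), the pentraxin Nptx2 (-0.83), the stress inducible Gadd45b (-0.76) and the peptide genes Crh (-0.75) and Adcyap1 (-0.72). Untreated arrays of Nptx2, Crh and Adcyap1 overlapped between the times and blocked ones did not, while Gadd45b overlapped in neither. Adcyap1 ran from -1.11 to -0.81 and then from -1.57 to -0.82 in untreated cultures. In blocked cultures it ran from -2.68 to -2.13 and then from -3.64 to -3.55. The neurotrophin gene Bdnf did not pass at 0.15, with 0.97 in untreated and -0.66 in blocked cultures. Of 24 neuropeptide system genes, 7 fell (29.2%) and 1 rose (4.17%). Galanin (Gal, -1.53) and the dynorphin precursor (Pdyn, -0.98) fell, as did the CRH binding protein Crhbp (-1.14) and the CART precursor Cartpt (-0.87). The somatostatin receptor gene Sstr2 rose by 0.58.

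Some ligands of the EGF receptor and some outputs of the ERK kinases fell. Hbegf, a membrane bound ligand released by proteases, ran from -0.49 to 1.45 (median 0.47) at 9 h and from -2.23 to -1.48 (median -1.83) at 26 h, with no overlap. It changed by -2.26 ± 0.15, 4.80-fold (limma adjusted p = 0.00175). The ligand amphiregulin (Areg) changed by -1.26 ± 0.11 and the receptor Egfr by -0.42 ± 0.07, and these 3 of 8 members measured fell (37.5%). Over all targets 14.2% fell and 10.3% rose. Epiregulin (Ereg) did not pass at -2.23 ± 0.71. Of 16 ERK outputs 6 fell (37.5%) and none rose. Among them were the membrane protein gene Emp1 (-2.42), Phlda1 (-1.10), Epha2 (-0.96), the phosphatase gene Dusp2 (-0.95), Ier3 (-0.63) and Errfi1 (-0.46). The ERK phosphatase gene Dusp6 (0.05) and the feedback genes Spry2 (0.17) and Spry4 (-0.36) did not pass.

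Part of the TGF-beta targets and of the matrix genes fell. Of 15 TGF-beta and BMP targets 8 fell and none rose, with a median of -0.40. Ccn1, a matricellular protein, changed by -1.93 ± 0.15 and its relative Ccn2 by -1.41 ± 0.18, but Ccn2 did not pass without the slide block (limma adjusted p = 0.37). Tgfbi (-1.11) and the fibre associated Ltbp2 (-1.06) fell. Of 23 matrix genes 9 fell, 2 rose and 12 did not pass. The hyaluronan synthase gene Has2 (-1.77), the aggrecan gene Acan (-1.22), the protease gene Mmp9 (-0.93) and the tenascin gene Tnc (-0.78) fell, while Tnr, the tenascin of perineuronal nets, rose by 0.76 (0.45 as the mean over its probes). Of 11 integrin subunits 3 fell (27.3%) and 1 rose (9.09%), against 14.2% and 10.3% over all targets. Itga5, part of the fibronectin receptor, changed by -2.45 ± 0.31, whereas Itgb1 (-0.35) did not pass. Of 23 cytoskeletal genes 7 fell and none rose, among them Flnc, Ankrd1 (-1.58), Actn1 (-1.08), Zyx (-0.81) and Vcl (-0.67), and the median of the 23 was 0.00. A second probe of Zyx had the opposite sign.

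Most factors that build ribosomes fell. Of 22 members measured, 18 fell and none rose, with a median change of -0.45, against 14.2% falling and -0.02 over all targets. Polr1b, a subunit of the polymerase that makes ribosomal RNA, ran from -2.87 to -2.43 (median -2.58) at 9 h and from -3.65 to -3.40 (median -3.51) at 26 h. Its 2 times did not overlap, and it changed by -0.93 ± 0.07, 1.90-fold (limma adjusted p = 0.00201). The large subunit gene Polr1a changed by -0.82 ± 0.07, the helicase gene Ddx21 by -0.81 ± 0.06 and Myc, a factor that drives these genes, by -0.82 ± 0.11. None of these 3 overlapped between the times. Nop58 (-0.64), Fbl (-0.56), Ncl (-0.35) and Npm1 (-0.29), proteins of the nucleolus, also fell. Nop16 (-0.17), Dkc1 (-0.07), Nolc1 (-0.12) and Pa2g4 (-0.23) did not pass.

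Among 52 ribosomal protein genes 1 passed, Rpl15 at 0.19 (-0.24 in untreated and 0.62 in blocked cultures), and their median was -0.03. Of the 52, 29 were saturated on all 12 arrays, where a change cannot be measured, and 47 on at least 1 array. Most of them can therefore not be set against the assembly factors. In the MYC network, Mycn (0.67) and the antagonist gene Mxd1 (0.40) rose while Myc fell, with 9 genes measured.

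The E-box CACGTG was searched on both strands in the same windows, since MYC and the clock factors both bind it. It lay in 7 of 19 ribosome assembly promoters (36.8%), against 8.79% of the promoters of genes tested here. It also lay in 4 of 19 promoters of cholesterol synthesis genes (21.1%), of which 8 of 26 measured rose and none fell. These lists, like those of the clock below, were chosen with earlier results of these data known, so that their shares are no test of the motif. Matches before the start are shown for 3 of the genes that fell and for Dkc1, which did not pass. Fbl, Nle1 and Nop2, not shown, were the other 3 with it. They lie at chr16:6219785-6219824 (minus strand), chr14:83074279-83074318 (plus), chr7:25102954-25102993 (minus) and chrX:157751450-157751489 (plus).
Gnl3: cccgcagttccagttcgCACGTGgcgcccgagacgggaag
Pes1: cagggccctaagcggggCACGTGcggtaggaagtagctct
Utp20: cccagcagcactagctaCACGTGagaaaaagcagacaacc
Dkc1: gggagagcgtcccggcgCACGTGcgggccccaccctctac

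Some genes of protein supply and stress also fell. Of 29 targets of ATF4, the factor of the amino acid response, 12 fell and none rose, with Stc2 (-1.02), Sesn2 (-0.70) and the mitochondrial folate genes Shmt2 (-0.58) and Mthfd2 (-0.50) among them. Shmt2 changed by 0.00 in untreated and -1.16 in blocked cultures. Atf4 itself (-0.25) and Ddit3 (-0.23) did not pass. Of 19 cytosolic tRNA synthetases 9 fell and none rose, from -0.49 (Yars1) to -0.24 (Mars1). Yars1 changed by 0.02 in untreated cultures, a value that also compares different scan days. Mars1 arrays overlapped between the times in untreated and not in blocked cultures. Of 21 antioxidant genes under NRF2, 5 fell (23.8%) and 3 rose (14.3%), against 14.2% and 10.3% over all targets. Srxn1, which repairs peroxiredoxins, ran from 3.37 to 4.16 at 9 h and from 1.66 to 2.15 at 26 h, without overlap, a change of -1.86 ± 0.13 (limma adjusted p = 0.00174). Hmox1, which degrades haem, fell by 1.16 ± 0.31 on the log2 scale and Txnrd1 by 0.95 ± 0.13, while Gpx1 (0.49) and Cat (0.25) were among those that rose and Nqo1 did not pass (-0.08). Cat changed by 0.66 in untreated and -0.16 in blocked cultures. Of 19 heat shock genes 3 fell (15.8%), near the share over all targets, and their median was 0.06. The 3 were Bag3 (-1.02), Hspb8 (-0.92) and Hsf1 (-0.22). Of 18 endoplasmic reticulum genes 4 fell (22.2%) and 2 rose (11.1%), and Hspa5 (-0.36) fell while Calr (0.66) rose. Hspa5 arrays overlapped between the times in untreated and not in blocked cultures, and Calr arrays the other way round. Of 19 hypoxia genes 5 fell and none rose, with the glucose steps Hk2 (-1.06) and Slc2a1 (-0.92) first, and these 2 were also the only glycolysis genes of 22 to fall. Of 18 glucocorticoid targets 3 fell (16.7%) and 1 rose (5.56%), near the shares over all targets. Fkbp5 changed by -0.55, and Zbtb16 by 0.63, from 1.27 in untreated and 0.00 in blocked cultures.

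Genes of inflammation and injury fell in part. Of 14 NF-kB and inflammatory genes 3 fell (21.4%) and 1 rose (7.14%), against 14.2% and 10.3% over all targets. The chemokine gene Ccl2 ran from -0.75 to 3.23 at 9 h and from -1.87 to 0.54 at 26 h. These ranges overlapped, but it was lower at 26 h on all 6 slides, with a change of -1.93 ± 0.17 (limma adjusted p = 0.00236). Ccl7 (-2.16) and Cxcl1 (-1.45) fell too, and Ccl7 did not pass without the slide block (limma adjusted p = 0.056). The summed signal of 16 microglial and macrophage markers, in multiples of the 75th percentile, ran from 2.57 to 3.66 at 9 h and from 1.85 to 3.69 at 26 h, and 1 of the 16 fell and 1 rose. Its part in these changes was not tested. Of 12 genes linked with nerve injury 6 fell and none rose, including Tnfrsf12a (-1.85), a TNF family receptor, Atf3 and Sox11 (-0.72). Of 20 interferon genes 5 rose and 1 fell, and Bst2 rose by 0.72 while Cxcl10 fell by 1.53 on the log2 scale. Of 17 hormone and retinoid enzymes and receptors 4 fell and 3 rose. Dio3, which inactivates thyroid hormone, changed by -2.12 ± 0.20, and Rxrg, a retinoid receptor, rose by 0.96 ± 0.08.

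The clock was read in 15 core genes and 3 output factors. Of the core genes 3 rose and 2 fell, against 10.3% and 14.2% over all targets. Dbp, an activator of clock output, ran from 0.97 to 1.86 (median 1.36) at 9 h and from 2.80 to 3.35 (median 3.21) at 26 h, with no overlap. It rose by 1.74 ± 0.11, 3.34-fold (limma adjusted p = 0.00143), by 1.90 in untreated and 1.58 in blocked cultures. Per2, a repressor of CLOCK and BMAL1, ran from -2.89 to -2.58 (median -2.76) and then from -2.22 to -1.22 (median -1.67), also without overlap. It rose by 1.07 ± 0.06, 2.11-fold (limma adjusted p = 0.00108), by 1.46 in untreated and 0.69 in blocked cultures.

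Ciart, a further repressor, rose by 0.83 ± 0.11 and the nuclear receptor gene Nr1d2 by 0.64 ± 0.10. The output factor Tef rose by 0.38 ± 0.05, with 1.12 on day 1 and -0.36 on day 2. The activator Bmal1 fell by 0.46 ± 0.06 on the log2 scale and Cry2 by 0.38 ± 0.06, and Cry2 changed by -0.96 on day 1 and 0.19 on day 2. These day values set 26 h blocked against 9 h untreated cultures on day 1 and 26 h untreated against 9 h blocked cultures on day 2. Without the slide block, Ciart and Cry2 did not pass (limma adjusted p = 0.0785 and 0.0518). Per1 (0.11), Per3 (0.02), Cry1 (-0.17), Clock (-0.11), Npas2 (0.22), Nr1d1 (0.31) and Bhlhe40 (0.25) did not pass. Neither did Csnk1d (-0.01), Csnk1e (-0.15) or the repressor Nfil3, which changed by -2.23 on day 1 and 1.96 on day 2.

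**Figure D4:**
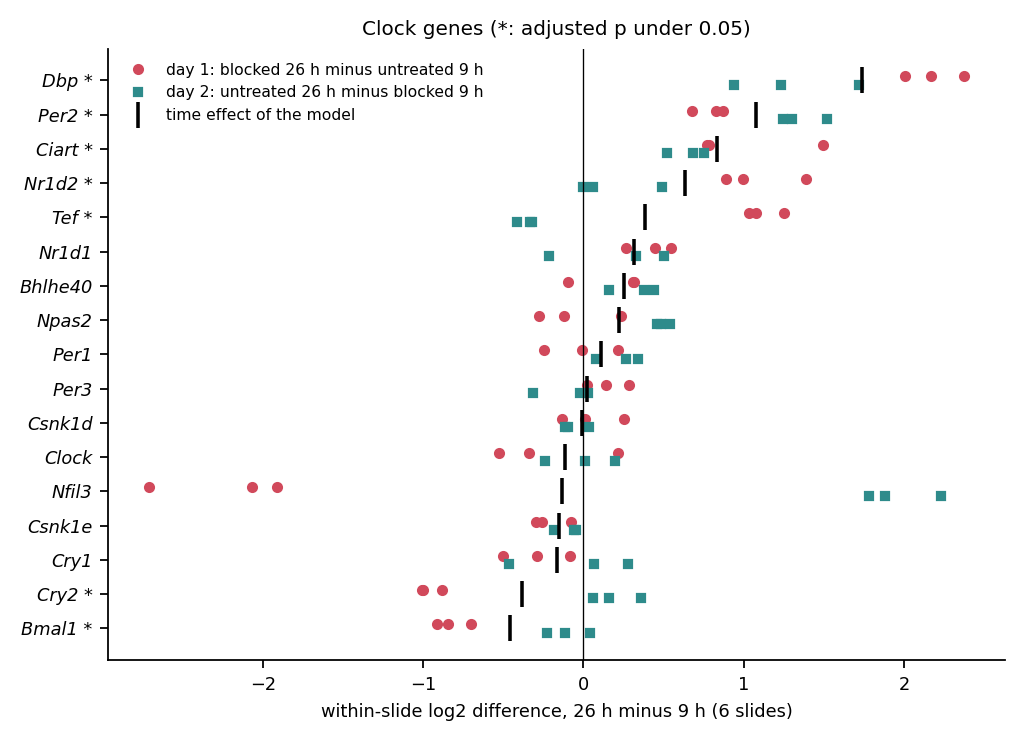
Each row is a clock gene described in the text, with the 6 differences between the 26 h and the 9 h array of a slide on the x axis (log2). Red circles are the 3 slides of day 1, teal squares the 3 slides of day 2 and the black bar the time effect of the model. Dbp, Per2 and Ciart lie above zero on all 6 slides, while Nfil3 lies below zero on day 1 and above it on day 2.

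In the promoter windows, the E-box lay in 2 of 12 core clock promoters and in 1 of 3 output factor promoters, and the D-box TTANGTAA, the site of Dbp and Tef, in 1 of 12 against 1.38% of the promoters of genes tested here. The windows of Dbp and Per2 held no CACGTG, and the other core clock gene with it, Bhlhe40, did not pass. Windows are shown for genes that rose, and lie at chr2:186112245-186112356 (minus), chr7:115206612-115206651 (plus) and chr9:99497161-99497202 (minus).
Ciart: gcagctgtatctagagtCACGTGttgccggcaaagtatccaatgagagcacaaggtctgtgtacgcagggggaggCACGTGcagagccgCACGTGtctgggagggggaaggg
Tef: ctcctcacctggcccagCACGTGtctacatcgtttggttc
Per2: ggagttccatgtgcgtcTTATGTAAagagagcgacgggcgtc
The Ciart window holds 3 E-boxes, the Tef window 1 and the Per2 window 1 D-box.

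Synaptic and channel genes moved in both directions. Over all targets 10.3% rose and 14.2% fell. Of 37 potassium and HCN channel genes 7 rose and 2 fell, with Kcnip4 (0.72) and Kcna4 (0.63) among the rises and Kcns1 (-1.43) falling. Of 27 axon guidance genes 8 rose and 2 fell: the semaphorin receptor gene Plxna2 rose by 0.80 ± 0.09 and Sema3c by 0.67 ± 0.06, and the netrin receptor gene Unc5b fell by 0.83 ± 0.09 on the log2 scale. Of 16 AMPA receptor genes 4 rose and 1 fell, with Gria2 rising (0.33, from 0.72 in untreated and -0.06 in blocked cultures) and the auxiliary subunit gene Cacng3 (-0.84) falling. Of 20 other glutamate receptor genes 5 rose and 1 fell. Grm5 rose by 0.62, from a change of 1.24 in untreated and 0.00 in blocked cultures, and Grm4 fell by 0.86 on the log2 scale. Of 16 GABA and glycine receptor genes 4 rose and 1 fell, and of 22 sodium and calcium channel genes 4 rose and 3 fell. Of 32 presynaptic genes 5 rose and 1 fell, with Pclo rising by 0.34, and of 24 postsynaptic density genes 4 rose and 3 fell, with Nlgn1 rising by 0.58, from 1.32 in untreated and -0.16 in blocked cultures.

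Some metabolic genes rose by small amounts. Of 26 genes of cholesterol synthesis 8 rose and none fell (median 0.22), among them Ebp (0.62), Acat2 (0.48) and Mvd (0.42), but only 2 rose without the slide block. Of 23 citrate cycle genes 5 rose (21.7%), of 41 respiratory chain genes 4 (9.76%) and of 30 proteasome genes 4 (13.3%), against 10.3% over all targets, and none fell. Without the slide block 3, 2 and 3 of these rose. Of 28 genes of mitosis and DNA replication 7 rose, led by Mcm3 (0.66, from -0.03 in untreated and 1.36 in blocked cultures), and 5 fell, led by Ccnb1 (-0.40), and without the slide block 1 rose and none fell. Of 18 p53 targets 6 rose and 3 fell: the death receptor gene Fas rose by 0.98 ± 0.07, and Gadd45g fell by 0.95 on the log2 scale. Of 25 lysosome and autophagy genes 4 rose and 1 fell, and of 14 Wnt and Notch targets 3 rose and 1 fell.

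**Figure D5:**
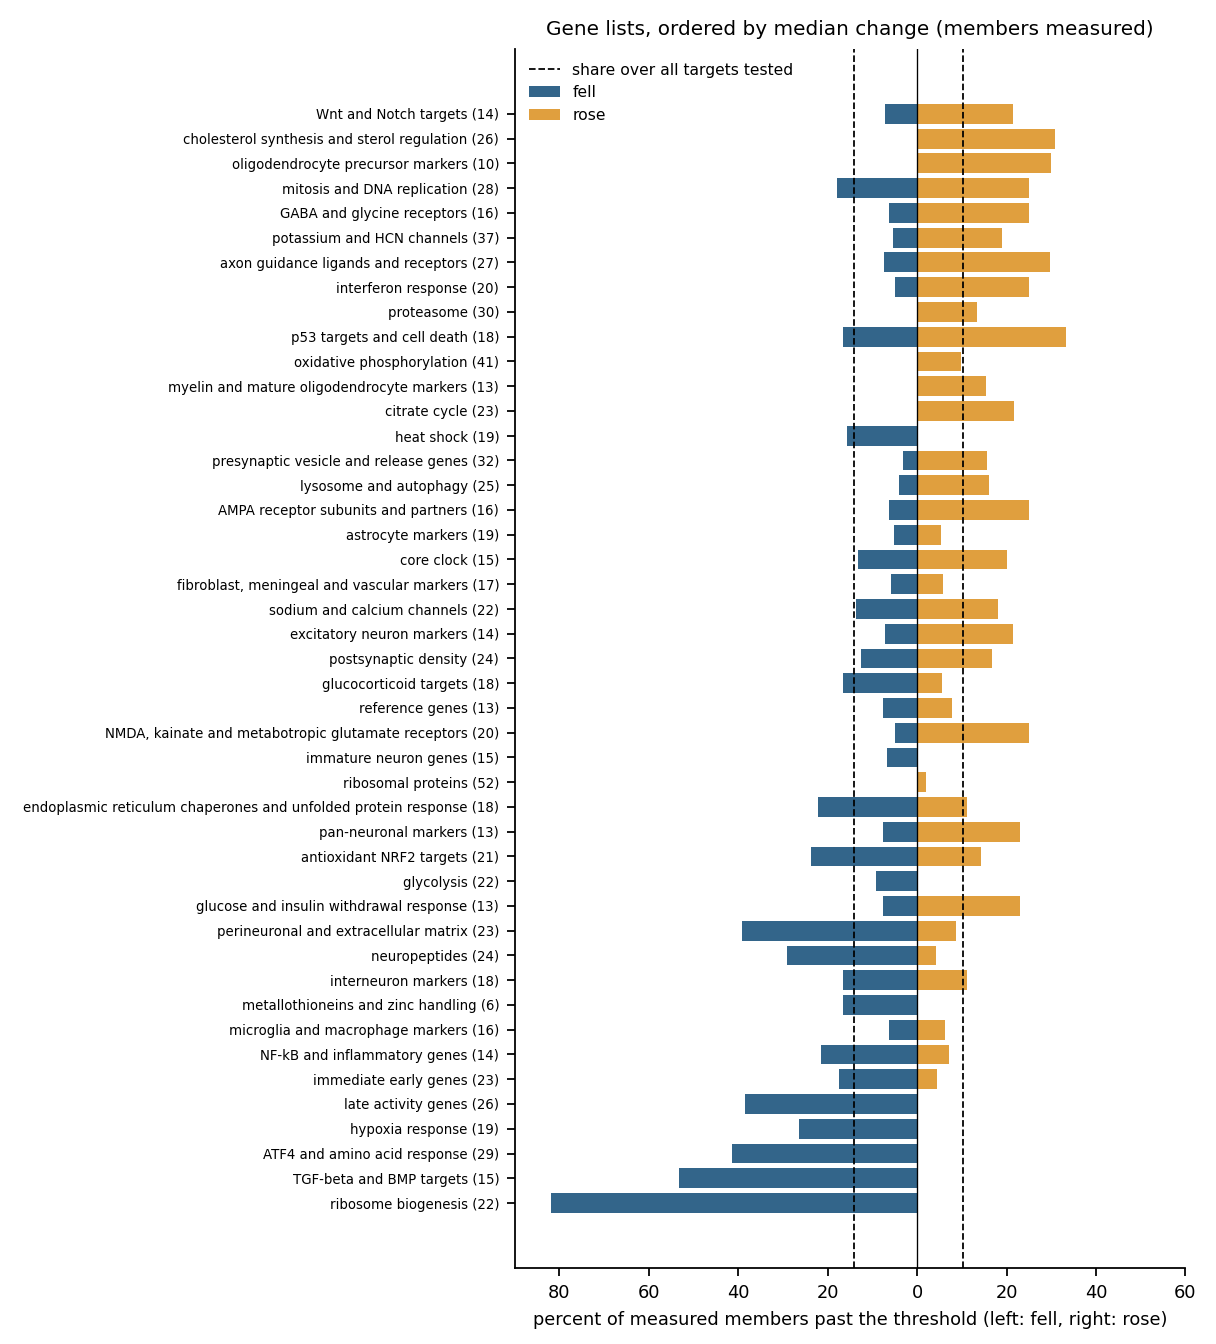
Each bar is a list with at least 5 members measured (their number in brackets), ordered by median change, with the percent of members that fell to the left of zero and that rose to the right. The dashed lines mark the shares over all targets tested, 14.2% falling and 10.3% rising, and ribosome biogenesis lies farthest to the left with 18 of 22 members.

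Markers of cell types moved in both directions, against 10.3% rising and 14.2% falling over all targets. Of 13 pan-neuronal markers 3 rose and 1 fell, with Map2 rising by 0.36 and the neurofilament gene Nefh falling by 0.51 on the log2 scale. Of 14 excitatory markers 3 rose and 1 fell, and the factor Neurod1 rose by 0.90 ± 0.07. Of 18 interneuron markers 2 rose and 3 fell, with Gad2 (-0.34) and Reln (-0.33) falling. Gad2 changed by 0.11 in untreated and -0.79 in blocked cultures, and Reln by 0.18 and -0.85. Of 19 astrocyte markers 1 rose (Gfap, 0.38) and 1 fell (Fgfr3, -0.46). Of 10 oligodendrocyte precursor markers 3 rose, and of 13 myelin markers 2 rose, Ugt8 (0.58) and Mog (0.36), with none falling in either. Of 17 fibroblast, meningeal and vascular markers 1 rose and 1 fell. Their summed signal, in multiples of the 75th percentile, ran from 4.01 to 39.97 at 9 h and from 6.59 to 38.3 at 26 h, so that arrays of the same time differed more than the times did. The sum for astrocytes ran from 112 to 157 at 9 h and from 119 to 184 at 26 h, and that for oligodendrocyte precursors from 14.4 to 20.1 and from 15.9 to 29.5. The part of these cells in the changes above was not tested.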

How the data were processed

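Per the file headers, the deposited intensity of a spot was computed by Agilent Feature Extraction 10.5.1.1, which subtracted the background of the array. The authors also deposited a log2 matrix, whose columns follow log2 of the processed signal with a slope of 1 and have medians from 7.57 to 7.75. The rule behind their constants is not given in the sources used here.

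Each intensity was divided by the 75th percentile of its array and put on a log2 scale. Control spots and 3751 outlier spot values were left out, and spots of a probe were averaged. A probe was kept where some group had all its arrays well above background (24029 of 30367 probes), and the kept probe with the highest mean stood for a gene. Probes were named through RefSeq accessions, which gave 18004 probes a gene, and 28 list symbols were matched through a synonym. One linear model with slide, blockade and time was fitted to all 12 arrays with limma 3.58.1 in R 4.3.3. It left 4 residual degrees of freedom and was tested on simulated data. Tests were two-sided, adjusted with Benjamini-Hochberg over 21244 targets. A target whose time effect could not be estimated was left out. No set test was run on the gene lists. Some genes counted in them are not reported here by name.

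Genes were named by rule: the 12 largest rises and 12 largest falls past the threshold with 1 direction on all 6 slides, all clock genes, and from each other list up to 6 members per direction and its first 3. All measured members of the families put together after values were seen may also be named, and members outside the rule (Dkc1, Gnl3, Nolc1, Nop16, Pa2g4, Pes1) were chosen after their values were seen. The members and lists were chosen with earlier results of these data known. Coordinates are those of the RefSeq promoter table (GRCr8), since the headers name an older build.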

Additional observations from a re-analysis of the deposited data

Results flagged for a closer look

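In 12 named genes past the threshold, the untreated 26 h arrays all lay on one side of the untreated 9 h arrays, and the blocked 26 h arrays all on the other side of the blocked 9 h arrays. The difference between the 2 effects was not tested, because it is the same contrast as the scan day. Genes of this kind were counted among the named genes only and not over all targets. Most of all targets did not share a direction in untreated and blocked cultures, as the counts given earlier show. Whether the number found here is unusual can therefore not be told. The first value given is the log2 change in untreated cultures and the second that in blocked cultures. Among genes of receptors and channels these were Cacng7 (1.34 and -0.41), Kcna1 (0.86 and -0.27), Grip2 (0.81 and -0.30) and Grid1 (-0.38 and 0.78). Of the postsynaptic density, Baiap2 (0.44 and -1.26) and Dlgap4 (0.26 and -0.71) were of this kind. The sterol enzyme Dhcr7 (1.00 and -0.24), the aconitase Aco1 (0.64 and -0.16) and the small GTPase relative Arl4d (0.72 and -1.51) were also. The stress factors were Hsf1 (0.19 and -0.63) and Atf6 (-0.90 and 0.19), and Rpl15 was the ribosomal protein gene (-0.24 and 0.62). Without the slide block Grip2, Grid1, Dlgap4, Dhcr7, Hsf1 and Rpl15 did not pass. A second probe of Grip2 had the opposite sign.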

How the results depend on the processing

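Of 295 named genes past the threshold, 43 passed under every alternative run for them (31 lower and 12 higher at 26 h), including Gprc5a, Tfpi2, Hbegf, Srxn1, Polr1b, Ddx21, Dbp, Per2 and Apln. With no slide block and no replicate block, 2684 targets passed (1033 rose, 1651 fell), and with the replicate block in place of the slide 5601. After removal of group means, 11 of 12 same-numbered pairs on different slides correlated over 0.1 (up to 0.66) and 1 at -0.04. The preset rule for pairing, every pair over 0.1, was thus not met. The 2 arrays of a slide also share a replicate number. Of these 6 pairs 5 correlated over 0.1, with values from 0.03 to 0.68, so that they did not meet that rule either. Leaving out 1 slide or all arrays of 1 replicate number left 241 to 3992 targets (49 to 1747 rose, 192 to 2389 fell), with 20 to 40 rising and 124 to 276 falling at least 2-fold. With 1 replicate number left out only 2 residual degrees of freedom remain. At least 2-fold, 48 rose with quantile normalization, 10 rose and 70 fell with normexp, and 18 rose and 143 fell among probes above background on all 12 arrays. The change of Csnk1e became 0.55 with normexp (limma adjusted p = 0.00736) and 0.31 with the mean over probes (0.0349), and that of Itga10 became -0.58 with the mean over probes (0.0336); the cause was not tested. Saturated and dim probes limit what can be read.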
